A study of Mus musculus with 15 samples.

Results

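The total ribosome footprints of *Rps27-FLAG* and WT mouse embryonic stem cells (mESCs) were compared to ask whether an epitope tag on an endogenous ribosomal protein alters translation. The comparison used 6 of the 15 libraries, chosen by their labels: 3 of *Rps27-FLAG* and 3 of WT. Ribosome profiling sequences the mRNA fragments that ribosomes shield from RNase (ribosome-protected fragments, RPFs). In the study, RPFs were taken from the whole ribosome pellet (total RPFs) of WT mESCs and of lines tagged on *Rps27* or *Rps27l*, and from anti-FLAG immunoprecipitates of the tagged lines.

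All lines derive from E14Tg2a.4, a mouse embryonic stem cell line kept in serum and leukemia inhibitory factor, and every culture received cycloheximide, an elongation inhibitor, before lysis. *Rps27-FLAG* mESCs carry a 3xFLAG tag at the C-terminus of Rps27 on both alleles, inserted by CRISPR exon replacement. Each of the 3 replicates of a line is 1 independently selected clone, and the WT clones were passaged alongside. The replicate number marks 1 library pool and sequencing batch, so that *Rps27-FLAG* and WT clone 1 share batch 1, and so on. RNA levels were not measured here. More mRNA and more ribosomes per mRNA therefore cannot be told apart, nor can the tag be told apart from the selection of clones.

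Rps27 (eS27) is a zinc-finger protein of the small ribosomal subunit, and *Rps27l* encodes its close paralog. A ribosomal protein made in short supply or assembled poorly is known to stall subunit maturation and to stabilise p53 through free ribosomal proteins that bind Mdm2. Footprints of ribosomal protein mRNAs, assembly factors, p53 targets and stress pathways are therefore the usual readouts of a disturbed ribosome.

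The guide target sites are shown because they place the edit. Capitals mark the PAM, the 3 bases next to the site that Cas9 requires, and sequences run 5′ to 3′ on the strand of the gene, the minus strand of GRCm38.
gRNA1: ttccaggatgctccttcaggAGG
gRNA2: cttgtttaactggtagcaagTGG
The gRNA1 site (chr3:90212740-90212759) crossed the boundary of the last intron and exon 4 of *Rps27*, with 14 of its 20 bases in the exon. Its last base lay 13 positions before the first base of the stop codon. The gRNA2 site (chr3:90212640-90212659) began 12 positions past the last annotated base of the gene, so the pair flanked the stop codon. Each site had 1 exact match in the genome.

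The ends of the coding sequences, from GENCODE M21, show why *Rps27* itself could not be read in these libraries. Capitals mark the stop codon in *Rps27*, and in the other sequences the bases that differ from *Rps27*.
Rps27: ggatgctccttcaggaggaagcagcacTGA
Rps27rt: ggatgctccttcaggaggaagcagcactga
Rps27l: ggCtgTtcAttTagAagAaagcaAcactAa
*Rps27rt*, a retrotransposed copy, was identical to *Rps27* over all 255 bases of its coding sequence, and 165 of 165 windows of 28 bases in the counted region were shared. Both were listed at 0 counts in all 15 libraries, which keep only unique alignments, so the edited gene offered no check of the labels. *Rps27l* was 76.1% identical to *Rps27*, with 0 of 165 windows shared, and was measured well.

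The untagged paralog *Rps27l* (chr9:66946086-66949512) did not differ in footprints. Its levels were 145, 158 and 156 CPM (read counts scaled to a common library size) in *Rps27-FLAG* clones 1 to 3 and 147, 148 and 148 in WT clones 1 to 3. The groups overlapped, with a log2 fold change of 0.05 (SE 0.06). The farther end of its 90% interval was 1.12-fold.

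The 6 libraries held between 6313827 and 7762727 counts, of which 98.7% to 99% fell on the 10085 transcripts tested. The 12 embryonic stem cell markers were all present and summed to between 5020 and 5230 CPM in *Rps27-FLAG* and between 4890 and 5360 CPM in WT. Markers of other cell types were below these: 5 neural markers, mostly *Tubb3*, summed to 167 to 178 CPM in *Rps27-FLAG* against 160 to 172 in WT, and 6 trophoblast markers, mostly *Tfap2c*, to 67.4 to 79.6 against 67.5 to 90.7. The 8 primitive endoderm markers summed to 18.7 to 54.1 CPM against 20.6 to 81.5, 5 mesoderm markers to 12.7 to 36.2 against 13.1 to 32, and 6 fibroblast markers to 11.3 to 30.8 against 12.3 to 28.4. Replicate 1 of both lines stood apart from replicates 2 and 3, and results are given within batch for that reason. *Tet1*, a 5-methylcytosine dioxygenase, was at 2.41, 420 and 415 CPM in *Rps27-FLAG* and at 3.06, 426 and 429 CPM in WT. Of 8045 transcripts with a mean CPM over 10, untested ones included, 34 were over 2-fold higher and 27 over 2-fold lower in replicate 1 of both lines, and 0 moved over 2-fold in opposite directions. In *Rps27l-FLAG* it was at 1.94, 2.09 and 420 CPM, so that the low level was also found in a clone of batch 2.

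Tagging *Rps27* was accompanied by little change in the total RPFs. By edgeR's quasi-likelihood test without a batch term, 0 of 10085 transcripts (0%) passed an adjusted p of 0.05, and the lowest adjusted p was 0.999. Before adjustment, 295 transcripts (2.93%) had a p under 0.05. The methods' model with voom and limma also called 0 transcripts, as did DESeq2, with 295 and 188 transcripts at a p under 0.05 before adjustment. With batch as a replicate block in the 9 total RPF libraries, 1 transcript passed (0.00992%), *Tfpi*, which was lower in *Rps27-FLAG*, and 628 (6.23%) had a p under 0.05 before adjustment.

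The data bounded most transcripts closely around no difference. A transcript was called equivalent when 2 one-sided tests, adjusted over all transcripts, placed its fold change within 1.5-fold in both directions. Of 10085 transcripts, 8069 (80%) were equivalent within 1.5-fold without the block and 8887 (88.1%) with it. Within 2-fold these were 9873 (97.9%) and 10010 (99.3%), and within 25% of no difference 3182 (31.6%) and 4816 (47.8%). No fitted fold change exceeded 2-fold, and 49 exceeded 1.5-fold, of which 19 were higher, 30 lower and 38 had a mean CPM under 10.

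Precision followed the level of the transcript. Under 10 CPM, 710 of 2046 transcripts (34.7%) were equivalent within 1.5-fold, with a median bound of 1.54-fold, where the bound is the farther end of the 90% interval. Between 30 and 100 CPM, 2823 of 2995 (94.3%) were equivalent, and above 300 CPM, 733 of 738 (99.3%), with a median bound of 1.12-fold. The widest bound belonged to *Tet1*, at 19.8-fold, although its log2 ratios in batches 2 and 3 were -0.02 and -0.05. The SE of its log2 fold change was 2.21 without the block and 0.06 in the 6 libraries of both lines with it. *Ccnd2*, a D-type cyclin, had the next widest bound of 6.13-fold.

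**Figure D1:**
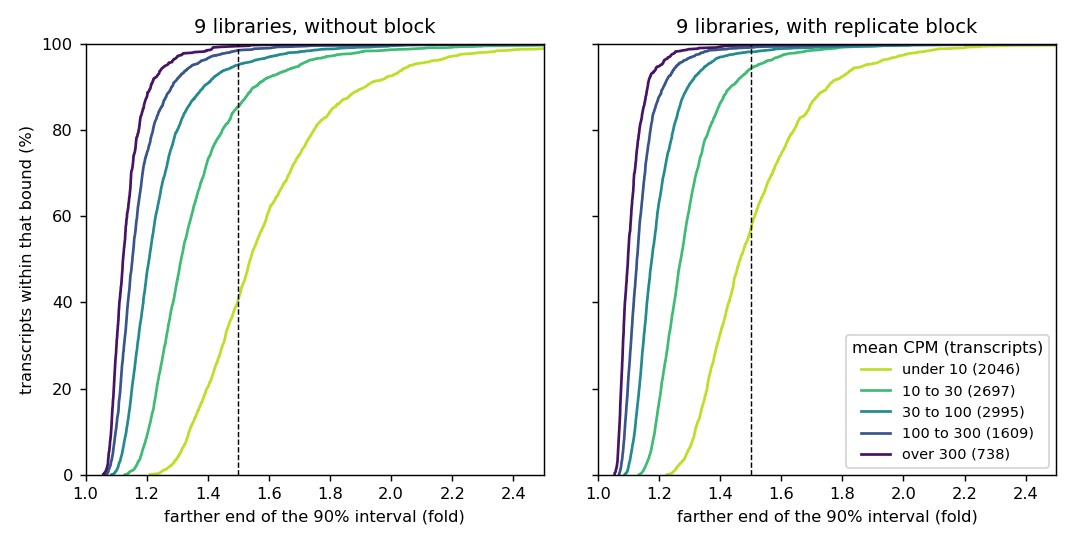
Share of transcripts (%) whose 90% interval lies within a given fold of no difference (horizontal axis), by mean CPM, in the 9-library fits without (left) and with (right) the replicate block. The dashed line marks 1.5-fold; curves of more abundant transcripts rise earlier, from a median bound of 1.54-fold under 10 CPM to 1.12-fold over 300 CPM without the block.

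**Figure D2:**
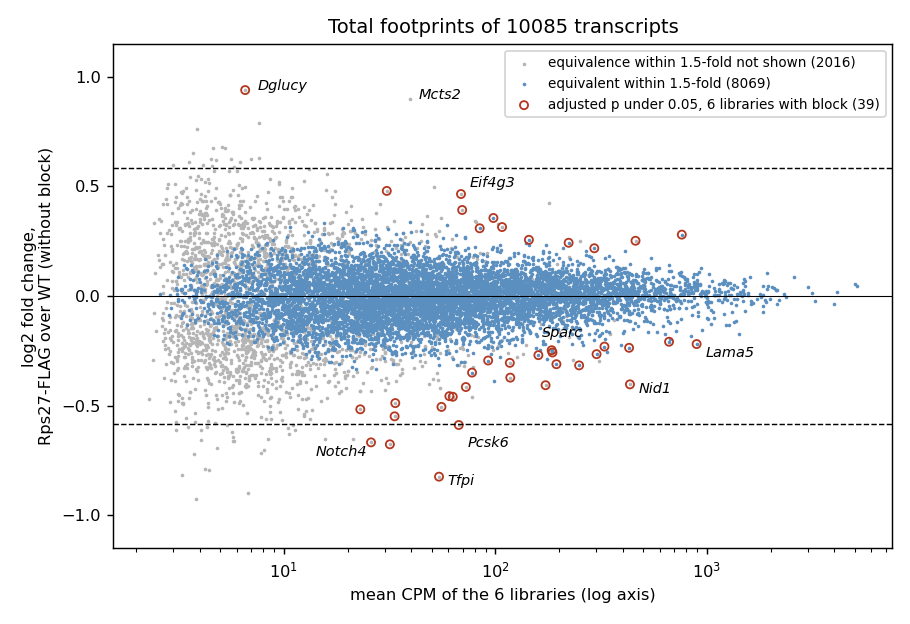
Log2 fold change of each of 10085 transcripts (*Rps27-FLAG* over WT, without block) against its mean CPM on a log axis, with dashed lines at 1.5-fold. Blue points were equivalent within 1.5-fold (8069), grey points were not shown to be, and red rings mark the 39 past the threshold in the 6-library fit with the block.

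The distance between tagged and WT clones of the same batch was slightly larger than that between clones 2 and 3 of one line. Over 8039 tested transcripts with a mean CPM over 10, the log2 ratios of *Rps27-FLAG* to WT of the same batch had SDs of 0.184, 0.199 and 0.192, of which counting error alone gave 0.127, 0.129 and 0.139. Clones 2 and 3 of *Rps27-FLAG*, which are of different batches, differed with an SD of 0.174 (counting error 0.137), and those of WT with 0.179 (0.131). Tagged and WT clones set across batches 2 and 3 had SDs of 0.194 (counting error 0.135) and 0.195 (0.134). Comparisons of a replicate 1 with a replicate 2 or 3 had SDs between 0.319 and 0.353, within either line or between them. Of these tested transcripts, 7, 7 and 5 exceeded 2-fold in the 3 within-batch pairs.

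**Figure D3:**
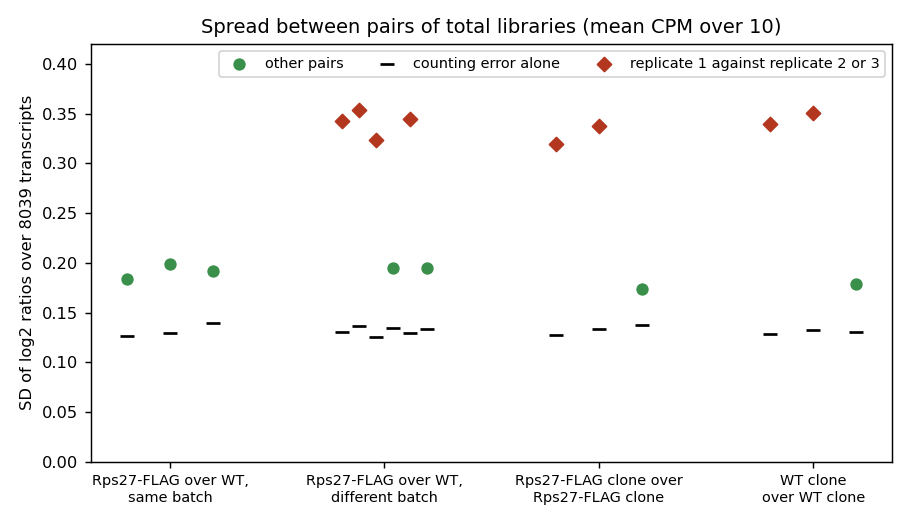
SD of log2 ratios over 8039 transcripts for pairs of *Rps27-FLAG* and WT total libraries, grouped by which lines and batches are compared, with black dashes for counting error alone. Pairs of the same batch lie between 0.184 and 0.199, and all pairs that set replicate 1 against replicate 2 or 3 (red) lie between 0.319 and 0.353.

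Few transcripts moved by more than 0.25 log2 in one direction in all 3 batches. The 3 *Rps27-FLAG* and 3 WT levels did not overlap for 861 transcripts (8.54%), 413 higher (4.1%) and 448 lower (4.44%). The 3 within-batch ratios had one sign for 3147 transcripts (31.2%), 1537 higher (15.2%) and 1610 lower (16%). All 3 log2 ratios were above 0.25 for 58 transcripts (0.575%) and below -0.25 for 78 (0.773%). When the fit was restricted to the 6 libraries of both lines with the block, 39 transcripts (0.387%) passed, 12 higher (0.119%) and 27 lower (0.268%). This fit takes its spread from these libraries alone, with a biological coefficient of variation of 5.12% against 7.20% for all 9 libraries with the block. The median log2 fold change was 0.31 for those higher and -0.35 for those lower. The groups did not overlap for 23 of the 39, and 18 were also equivalent within 1.5-fold in the fit without the block. Without batch 1, 2 or 3 this fit had 2 clones of each line left and called more transcripts, namely 99, 61 and 55. Of the 39, 10 passed in all of these refits and 2 (*Plrg1* and *Sparc*) in none. All 39 had one sign in all 3 within-batch ratios, so their kept direction in the refits followed from that. The refits used subsets of the libraries that chose the 39 and are no independent check. The paragraphs that follow use this 6-library fit for "rose" and "fell".

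*Tfpi* (chr2:84432855-84475280), which encodes the secreted tissue factor pathway inhibitor of coagulation, showed the clearest difference. Its levels were 38.8, 47.2 and 31.1 CPM in *Rps27-FLAG* and 74.2, 70.3 and 63.2 CPM in WT, so that every tagged clone was below every WT clone. The log2 fold change was -0.84 (SE 0.10, edgeR adjusted p = 0.00357) in the 9-library fit with the block and -0.82 (SE 0.18, adjusted p = 0.999) without it. Without batch 1, 2 or 3 the adjusted p of the 9-library fit with the block was 0.287, 0.00033 and 0.541. That of the 6-library fit was 0.000165 or lower. Each of these refits had 2 clones of each line left. In *Rps27l-FLAG*, which carries its tag on another gene, *Tfpi* was at 43.7, 59.5 and 37.8 CPM, also below the same WT clones.

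*Nid1*, *Pcsk6*, *Notch4* and *Slc39a4* also fell. *Nid1* (chr13:13437551-13512269), the basement membrane linker nidogen, was at 343, 373 and 402 CPM against 460, 461 and 558 in WT. Its log2 fold change was -0.40 (SE 0.05, edgeR adjusted p = 2.44e-05). *Pcsk6*, a proprotein convertase that cleaves TGF-β family precursors, was at 59.6, 49.1 and 52.1 CPM against 97.2, 72.3 and 72.4. For both genes the groups were separate. *Notch4*, a Notch receptor, was at 25.7, 19.5 and 14.4 CPM against 41.2, 26.3 and 27.8, with all tagged clones below all WT clones. *Slc39a4*, a zinc importer, was at 46.1, 47.7 and 44.0 CPM against 59.6, 71.9 and 64.2. *Pcsk6*, *Notch4* and *Slc39a4* had log2 fold changes of -0.58 (SE 0.08), -0.67 (SE 0.11) and -0.50 (SE 0.08).

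The other transcripts that fell included *Inhbb*, the β subunit of activin B (-0.53), *Ccnd2* (-0.62), *Ucp2*, a mitochondrial carrier (-0.49), *Rdh11*, a retinol dehydrogenase (-0.45), *Folr1*, a folate receptor (-0.35), and *Ero1l*, an oxidase of the endoplasmic reticulum (-0.30). *Ccnd2* was at 4.58, 33.4 and 35.7 CPM against 7.10, 40.2 and 69.3, and its groups overlapped across batches although each tagged clone was below the WT clone of its batch. In a list of 20 tested basement membrane and matrix genes, which was written after these values were seen, 4 fell (*Nid1*, *Fbln1*, *Sparc* and *Lama5*), against 0.268% of all transcripts, and the choice of the list used these falls. The median log2 fold change of that list was -0.16 without the block, against -0.00 for all transcripts, and its medians within batches 1 to 3 were -0.03, -0.16 and -0.23.

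Among the 12 that rose, *Eif4g3* (chr4:137993456-138207079) encodes a scaffold of the cap-binding complex eIF4F. It was at 71.4, 89.7 and 78.3 CPM in *Rps27-FLAG* and 54.9, 57.8 and 60.6 in WT, with no overlap. The log2 fold change was 0.47 (SE 0.08, edgeR adjusted p = 0.00193). *Med10*, a Mediator subunit, was at 38.3, 34.9 and 33.9 CPM against 29.5, 22.0 and 25.4 (0.48, SE 0.10). *Pdcd2*, a chaperone of the small-subunit protein Rps2, was at 98.4, 119 and 112 CPM against 74.4, 91.2 and 91.9 (0.36, SE 0.07). For both, each tagged clone was above every WT clone. *Dglucy*, a D-glutamate cyclase, had the largest rise (0.94, SE 0.20), from 4.04, 4.50 and 4.91 CPM to 5.97, 10.5 and 9.50, and passed in 1 of the 3 refits that left out a batch. *Plrg1* and *Prpf6*, both spliceosome components, rose by 0.25 and 0.22, and *Mrps18b*, a mitochondrial ribosomal protein, by 0.26.

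**Figure D4:**
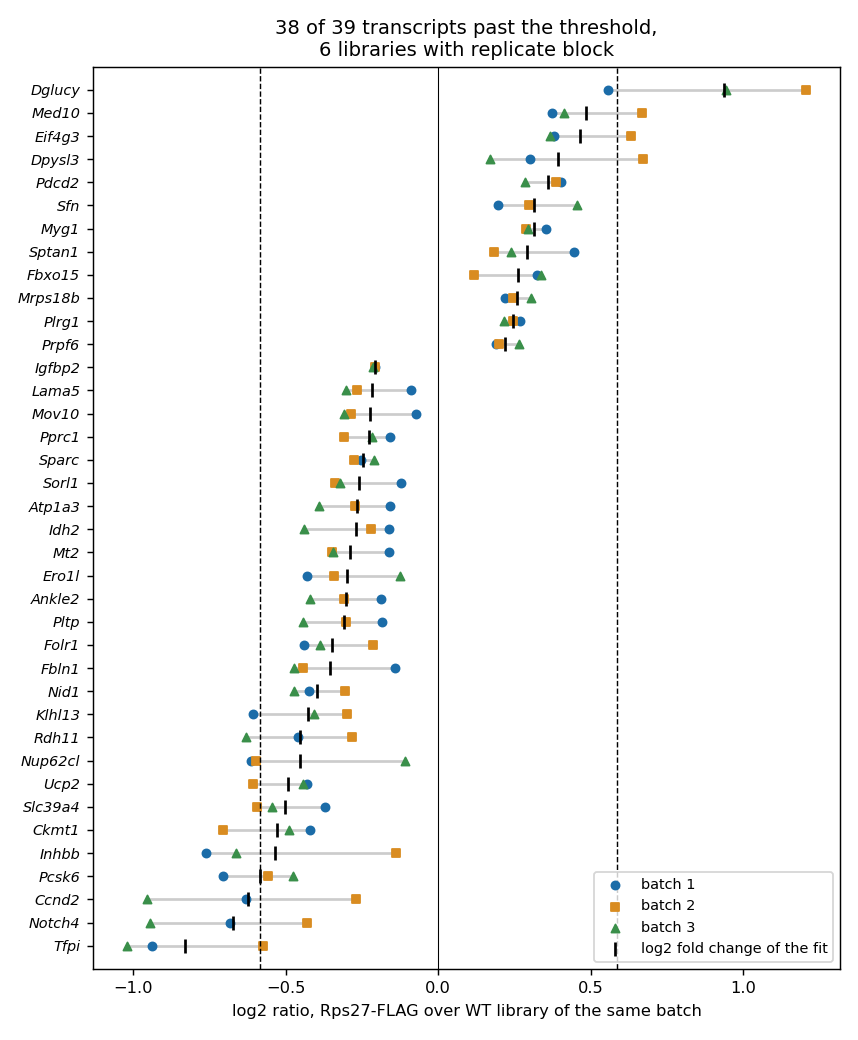
Log2 ratio of *Rps27-FLAG* over the WT library of the same batch for 38 of the 39 transcripts past the threshold in the 6-library fit with the block, 1 symbol per batch and 1 transcript not shown. Black ticks are the fitted log2 fold changes and dashed lines 1.5-fold; all 3 symbols lie on one side of 0 for each transcript, and all lie within 2-fold in the fit.

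Footprints of cytoplasmic ribosomal proteins did not move as a group. Of 33 small-subunit proteins 30 were tested, 0 passed with or without the block and 29 were equivalent within 1.5-fold without the block. Their median log2 fold change was 0.02, with medians of -0.06, 0.00 and 0.12 within batches 1 to 3. They ranged from -0.08 for *Rpsa* to 0.17 for *Rps7*. Of 47 large-subunit proteins 41 were tested and 38 were equivalent, with a median of 0.01 and batch medians of -0.08, 0.00 and 0.10. *Rpl41* was the lowest (-0.19, SE 0.10), at 30.9, 28.9 and 31.8 CPM against 36.8, 33.7 and 33.6. The batch medians of both subunits spanned 0.

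Assembly and translation factors were tightly bounded. All 58 tested small-subunit biogenesis factors and all 57 large-subunit factors were equivalent within 1.5-fold, with medians of 0.03 and 0.04. Of 42 initiation factors 41 were equivalent, the median was 0.03, and only *Eif4g3* rose. Elongation and termination factors (18 of 19 equivalent, median 0.01) and factors of ribosome collision and quality control (32 of 34, median 0.01) had no member past the threshold. *Eef2*, which translocates the ribosome, was at 3878, 3810 and 4164 CPM against 3985, 4098 and 4083, a difference of -0.04 (SE 0.05).

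The lists of stress genes held no transcript past the threshold. Of 35 tested genes of p53 and its targets, 27 were equivalent within 1.5-fold, and the median was 0.07 (batch medians -0.06, 0.17 and 0.08). *Trp53* was at 663, 666 and 732 CPM against 579, 636 and 691, so the groups overlapped (0.11, SE 0.08), and its bound was 1.19-fold. Each tagged clone was above the WT clone of its batch, as for 15.2% of all transcripts. The ends of the list were *Perp* (0.38, SE 0.18) and *Sertad1* (-0.47, SE 0.18). *Cdkn1a*, the p21 cell cycle inhibitor, which was picked after its values were seen, was at 18.3, 20.5 and 17.2 CPM against 15.7, 21.3 and 17.5. Targets of Atf4 (26 of 32 equivalent, median -0.05) and of the heat shock and unfolded protein responses (31 of 33, median -0.02) also held no call. *Sfn* and *Ero1l*, which were in none of these lists, did pass in the 6-library fit with the block. *Ero1l* fell, as given above, and *Sfn* rose (0.32, SE 0.07). *Sfn* was at 116, 118 and 124 CPM against 101, 96.1 and 90.2, with no overlap.

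Identity genes of the stem cells were close to WT. Of 36 core and naive pluripotency factors, 31 were equivalent within 1.5-fold, the median was -0.01, and 1 rose, *Fbxo15* (0.26). The 25 tested formative and lineage markers had a median of 0.03 and 10 were equivalent, and the 24 tested germline genes silenced by DNA methylation had 7 equivalent without the block and 18 with it. Their median of 0.17 had batch values of 0.20, 0.03 and 0.08, and without *Rps27-FLAG* clone 1 it was -0.26.

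Of 31 lists with at least 5 tested members, of which the lists of matrix genes and of collagen processing enzymes were written after the values were seen, 26 had a median log2 fold change within 0.1 of 0. The lowest median was that of the 25 cholesterol synthesis genes, at -0.16 with batch medians of -0.13, -0.23 and -0.11. The fitted change was below 0 for all but 1 of the 25, where 49.7% of all transcripts were above 0, and 7 of 25 did not overlap, being lower, against 4.44% of all. None passed the threshold with or without the block. Their summed level was 4041, 3702 and 4046 CPM in *Rps27-FLAG* and 4421, 4376 and 4336 CPM in WT, with no overlap.

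The 77 mitochondrial ribosomal proteins shifted slightly upward. Their median log2 fold change was 0.06, with batch medians of 0.04, 0.06 and 0.05, and 77 of 77 were equivalent within 1.5-fold. Their summed level was 5563, 5655 and 5639 CPM against 5317, 5416 and 5366, with no overlap. Of these genes 9 did not overlap, all higher, against 4.1% of all transcripts, and 1 rose (*Mrps18b*). DNA replication genes (44 of 46 equivalent) had a median of 0.07 with 8 not overlapping, all higher, and proteasome subunits (37 of 38 equivalent) had 0.05 with 6. Cyclins and cell cycle kinases had a median of 0.01, with 31 of 35 equivalent and 1 fall (*Ccnd2*). Log2 fold change and coding length had a Spearman correlation of -0.17 across 8036 transcripts, which are not independent replicates, and of -0.07, -0.12 and -0.14 within batches 1 to 3. Its part in the shifts of gene lists was not tested.

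**Figure D5:**
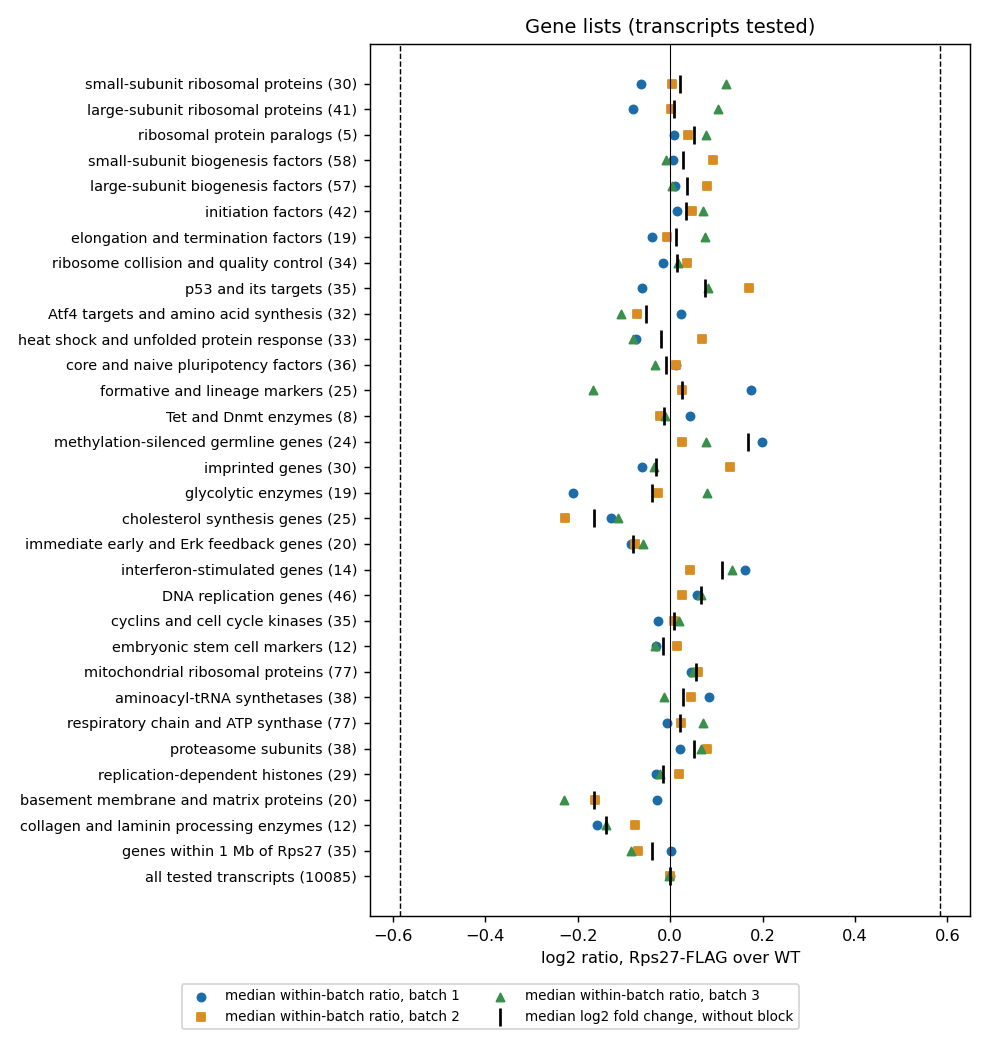
Median log2 ratio of *Rps27-FLAG* over WT for each gene list with at least 5 tested members, within batches 1 to 3 (symbols) and in the fit without block (black tick), with the number of tested transcripts in brackets and dashed lines at 1.5-fold. All medians lie well inside the lines, and the lists with 3 batch medians on one side of 0 include cholesterol synthesis genes and mitochondrial ribosomal proteins (-0.11 to -0.23 and 0.04 to 0.06).

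The genome around the edited locus showed no common shift. Of 61 genes within 1 Mb of *Rps27*, 35 were tested, 23 were equivalent within 1.5-fold and 0 passed, with a median of -0.04. Median log2 ratios of tested transcripts lay between -0.04 and 0.03 in every within-batch pair for the autosomes and the X chromosome. Y-linked transcripts, none of which passed the filter, differed between clones. Their summed level was 209, 319 and 1.31 CPM in *Rps27-FLAG* and 110, 2.78 and 6.54 CPM in WT. *Eif2s3y*, a Y-linked initiation factor subunit, was at 130, 145 and 0.65 CPM against 99.9, 1.72 and 4.46. High levels of *Eif2s3y* were thus found in clones 1 and 2 of *Rps27-FLAG* and clone 1 of WT, and the groups overlapped. *Uba1y* was at 50.3, 10.6 and 0.49 CPM against 25.5, 1.32 and 0.45. Other Y-linked transcripts were low in WT clone 1. *Uty* was at 52.0, 61.8 and 0 CPM against 2.09, 0.40 and 0.15, and *Ddx3y* at 25.7, 111 and 0.65 against 7.24, 0.40 and 1.93.

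Single clones differed from their WT partner at a few loci. *Mcts2* (chr2:152687035-152687946), a retrogene that lies within *H13* (chr2:152669461-152708670) on the same strand and is known to be imprinted, was at 25.8, 65.9 and 62.4 CPM in *Rps27-FLAG* and 23.4, 29.0 and 29.9 in WT. *H13*, a signal peptide peptidase, was at 110, 40.3 and 43.9 CPM against 93.4, 91.4 and 84.6. Clones 2 and 3 of *Rps27-FLAG* were thus high for *Mcts2* and low for *H13*, while clone 1 was nearer to WT at both. *Rps27l-FLAG* clones 1 to 3 had 50.1, 24.8 and 63.7 CPM of *Mcts2* and 45.2, 98.4 and 40.6 CPM of *H13*. The log2 fold changes were 0.90 (SE 0.38) and -0.46 (SE 0.40) without the block, and neither transcript passed with all 3 batches. In the 6-library fit with the block, the edgeR adjusted p with all 3 batches was 0.309 for *Mcts2* and 0.794 for *H13*. In refits of it, *Mcts2* passed without batch 1, 2 or 3 (edgeR adjusted p = 1.86e-08, 0.000136 and 6.06e-05). *H13* passed without batch 1 alone (adjusted p = 1.12e-08). These refits had 2 clones of each line left, so their lower values are not stronger evidence. Among tested transcripts with a mean CPM over 10, the largest log2 ratios in batch 1 were those of *Vwf* (1.17), a clotting glycoprotein, and *Ndufa4l2* (-1.46). In batch 2 they were *Asap3* (1.33) and *Khdc3* (-1.35), an oocyte and stem cell factor, and in batch 3 *Dgke* (1.09), a diacylglycerol kinase, and *Bhlhe40* (-1.10), a basic helix-loop-helix repressor. Each of these was the largest in 1 batch and 1 clone, so that it has no replicate check.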

How the data were processed

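RPFs of E14Tg2a.4 mESCs were sequenced by the authors. Per the submitters' processing notes and the methods, reads were trimmed with cutadapt 2.4, deduplicated by molecular identifier with UMI-tools 1.0.1, depleted of non-coding RNA and aligned uniquely with Bowtie2 2.3.4.3 to GRCm38 transcripts. The deposited values are the authors' raw counts of A sites per coding sequence, leaving out the first 15 and last 5 codons, for 21727 transcripts; 21713 were named from GENCODE M21. Reads that match several transcripts are lost, so identical paralogs read 0.

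The test covered 10085 transcripts: those above 2 CPM in 14 or more of the 15 libraries, without the 13 encoded by mitochondrial DNA. CPM are counts scaled to a common library size with TMM factors. Counts were tested with edgeR 4.0.16 (R 4.3.3; quasi-likelihood, robust, TMM, Benjamini-Hochberg, threshold 0.05) in the 9 total libraries with the cell line as the term, as in the methods' design. limma 3.58.1 (voom) and DESeq2 1.42.0 were alternatives. Equivalence used 2 one-sided tests against 1.5-fold (0.585 log2) from the same fit. Within-batch ratios had 0.5 counts added. Scripts were tested on simulated data.

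The replicate number was used as a block because, per the labels, libraries were pooled within each replicate. Deviations of same-numbered *Rps27-FLAG* and WT libraries from their line means correlated with r of 0.719, 0.328 and 0.451. Those of clone 2 with WT clone 3 (0.412) and of clone 3 with WT clone 2 (0.353) were as high.

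Named transcripts were *Rps27*, *Rps27rt* and *Rps27l*; those past the threshold without or with the block; the 8 higher and 8 lower ones with the lowest p in the 9-library fit with the block and 1 sign in all batches; the 3 largest ratios each way per batch at a mean CPM over 10; and the lowest, highest and most abundant member of each list. Of these a selection is described, some items are not reported here, and the 39 transcripts of the 6-library fit were added after that fit was seen. The comparison, lists and rules were chosen with earlier results of these data known. Replicates were separate clones that differed beyond counting error, so that none was a copy of another. Library totals set the precision of low transcripts.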

Additional observations from a re-analysis of the deposited data

Results flagged for a closer look

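Among transcripts outside the test, 4 of the 13 mitochondrially encoded ones were higher in all *Rps27-FLAG* libraries than in all WT libraries, where 4.1% of tested transcripts were. Their means (n = 3 and 3) were 767 against 680 CPM for *mt-Nd5*, 568 against 511 CPM for *mt-Nd4*, 419 against 377 CPM for *mt-Nd2* and 121 against 113 CPM for *mt-Nd4l*, all subunits of respiratory complex I. The groups of the complex I subunits *mt-Nd1*, *mt-Nd3* and *mt-Nd6* overlapped. All 13 had a higher mean in *Rps27-FLAG*, also outside complex I, such as *mt-Co3* (675 against 599 CPM) and *mt-Cytb* (893 against 818 CPM), whose groups overlapped. Among transcripts that were too low for the filter, 5 had all 3 *Rps27-FLAG* levels above all 3 WT levels, a mean at least 1.5-fold that of WT and a mean over 3 CPM. *Plekhd1* averaged 4.53 against 2.56 CPM, *F8* 4.24 against 2.47, *Fosl2* 3.53 against 1.91, *Gimap9* 3.38 against 2.2 and *Maml3* 3.09 against 1.47. At 1.5-fold or more, 18 such transcripts were higher and 19 lower without overlap, and the lower ones included *Atp6v0e2* (1.88 against 3.78 CPM) and *Sult6b1* (1.67 against 3.72). These differences were not tested.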

How the results depend on the processing

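The count of transcripts past the threshold was 0 under every alternative scaling, filter and tool, and without any single library. It was 1 with the replicate block in 9 libraries and 39 in 6 libraries with the block, and leaving out a library or batch gave 0 to 99 over all these fits; the block alone without 1 batch gave 0 to 3. Equivalence within 1.5-fold (8069 of 10085 transcripts) became 3182 for a bound of 25%. With no filter it held for 7418 of 17353 transcripts, and at a CPM over 10 in all 9 total libraries for 7050 of 7450. Without 1 *Rps27-FLAG* or WT library it held for between 7231 and 7386 of 10085. *Ccnd2* turned to 0.0320 without WT replicate 3 and ranged from -1.17 to 0.0320 when 1 library was left out. The median of the Tet and Dnmt enzymes was 0.0246 at a CPM over 10, and that of the 5 neural markers -0.0653 with no filter, where more low transcripts entered. Leaving out a library or batch moved these list medians over the ranges given: paralogs of ribosomal proteins 0.0317 to 0.12, pluripotency factors -0.0275 to 0.0167, Tet and Dnmt enzymes -0.0313 to 0.0719, germline genes -0.26 to 0.47, immediate early genes -0.23 to 0.0543, interferon-stimulated genes 0.0494 to 0.19, DNA replication genes 0.0130 to 0.0874, embryonic stem cell markers -0.0734 to 0.0101, neural markers 0.0116 to 0.13, mitochondrial ribosomal proteins 0.0335 to 0.0589, histones -0.0925 to 0.0444 and collagen processing enzymes -0.16 to -0.0895. The cause was not tested. With all batches kept, the block added no call beyond the 1 and the 39 given above. Without batch 2, the 9-library fit with the block called *Thbs1* and *Ccnd2* besides *Tfpi*. With 3 clones a line, 34.7% of the transcripts under 10 CPM were bounded within 1.5-fold.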
